A study of Homo sapiens with 24 samples.

Results

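The 12 libraries described here, of 24 in the series, cross 2 agents, KJ-PYR-9 and DEX, in BT549 cells, and each holds RNA sequencing read counts per gene. They were chosen by label: the libraries labelled VEH, DEX, KJ-PYR-9 and KJ-PYR-9 + DEX, without the 3 VEH libraries marked #2, which the labels place with another agent. BT549 is a human triple negative breast cancer line of mesenchymal character, and all libraries came from wild type cells grown in RPMI with fetal bovine serum and labelled as biological replicates. The 4 groups of 3 libraries were VEH (the control), DEX, KJ-PYR-9 (40 µM in DMSO for 3 h) and both together (KJ-PYR-9+DEX). The labels give neither the dose and time of DEX nor what the abbreviation stands for, and they do not say in which order the agents were added. The question was, for each gene, whether the change with both agents differed from the sum of the changes with each. On the log2 scale this interaction is the KJ-PYR-9 effect in the presence of DEX minus the KJ-PYR-9 effect in its absence. It was computed for the 13616 genes whose mean normalized read count was at least 10.

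KJ-PYR-9 is a small molecule that blocks the pairing of MYC with its partner MAX, the form in which MYC binds DNA. Immediate early genes, such as FOS, EGR1 and the NR4A nuclear receptors, encode transcription factors that cells switch on within minutes of a growth factor, stress or cAMP signal, through factors such as SRF and CREB, and switch off again soon after. The glucocorticoid receptor, encoded by NR3C1, is a ligand-activated transcription factor. It raises genes such as FKBP5, TSC22D3, PER1 and SGK1, and it restrains inflammatory genes such as IL6 and CXCL8.

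The upstream sequences of 4 genes with contrasting shapes are shown first. EGR1, FOS and IL6 were high with either agent alone and low with both, and IRF2BPL was higher with both agents than in any other library. Each is the run of 250 bases before a RefSeq start on GRCh38.p14, written 5′ to 3′ on the gene's strand. Capitals mark CArG boxes, sites known to bind SRF, in EGR1, an NF-kB site in IL6 and a cAMP response element (TGACGTCA) in IRF2BPL. None of the 11 searched motifs other than the GC box (GGGCGG) matched the FOS run, so it has no capitals.
EGR1, chr5:138465229-138465478, plus strand: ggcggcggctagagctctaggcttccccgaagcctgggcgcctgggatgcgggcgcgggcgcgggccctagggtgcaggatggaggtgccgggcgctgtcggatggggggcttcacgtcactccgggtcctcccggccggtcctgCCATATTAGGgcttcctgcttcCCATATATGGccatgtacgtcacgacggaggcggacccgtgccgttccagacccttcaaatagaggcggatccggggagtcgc
FOS, chr14:75278578-75278827, plus strand: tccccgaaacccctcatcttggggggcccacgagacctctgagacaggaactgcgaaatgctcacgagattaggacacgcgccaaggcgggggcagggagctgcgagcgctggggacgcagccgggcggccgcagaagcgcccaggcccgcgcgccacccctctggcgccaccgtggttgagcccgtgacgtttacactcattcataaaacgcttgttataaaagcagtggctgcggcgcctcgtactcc
IL6, chr7:22726950-22727199, plus strand: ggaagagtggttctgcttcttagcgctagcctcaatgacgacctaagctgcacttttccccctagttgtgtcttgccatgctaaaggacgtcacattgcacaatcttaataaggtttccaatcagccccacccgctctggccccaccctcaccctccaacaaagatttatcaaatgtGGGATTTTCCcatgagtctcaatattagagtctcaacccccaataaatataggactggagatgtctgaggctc
IRF2BPL, chr14:77028709-77028958, minus strand: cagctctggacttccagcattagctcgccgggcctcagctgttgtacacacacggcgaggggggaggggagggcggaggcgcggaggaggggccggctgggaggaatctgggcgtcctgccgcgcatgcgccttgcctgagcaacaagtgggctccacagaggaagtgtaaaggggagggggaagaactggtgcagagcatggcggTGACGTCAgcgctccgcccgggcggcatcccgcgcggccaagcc

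The depth recovered from the table, in M reads, was 7.85 to 30.8 for VEH, 5.58 to 14.5 for DEX, 21.2 to 26.9 for KJ-PYR-9 and 6.89 to 12.1 for KJ-PYR-9+DEX, so low genes were measured less precisely in the groups with DEX and in VEH 3. Library DEX 1 stood apart, with 26.0% of its reads on features that have no gene symbol. KJ-PYR-9+DEX 3 had 8.72%, and no VEH library more than 1.86%. VIM, FN1, ZEB1, CDH2 and EGFR were present in all libraries, PGR read 0 to 20.9, and CDH1 33.6 to 64.9. ESR1 and EPCAM were not among the gene symbols of the table, so their levels could not be checked. Of 18 leukocyte markers 6 were in the table, with a summed level of 135 to 172 in VEH, 94.6 to 127 in DEX, 260 to 326 in KJ-PYR-9 and 228 to 340 in KJ-PYR-9+DEX. The 11 fibroblast and endothelial markers in the table summed to 6972 to 7774, 5940 to 7071, 11644 to 13050 and 10434 to 13273 in the same order. No list member was at 0 in every library. Both sums were higher in the groups with KJ-PYR-9, with DEX or without, and their part in the results was not tested. None of the 2 and 8 markers tested had a called interaction by limma, edgeR or DESeq2, and 1 of them had an unadjusted p under 0.05.

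The interaction was called for 2283 genes (limma, Benjamini-Hochberg adjusted p under 0.05). It was positive for 973 genes, 7.15% of those tested, and negative for 1310 genes, 9.62%. With the replicate number as a block the counts were 1682 and 2717, and without DEX 1 and KJ-PYR-9+DEX 3 they were 781 and 1044. The p-values measure the spread between these libraries. The size was at least 1 (2-fold) for 1446 of them and at least 2 (4-fold) for 448. Beyond 4 on the log2 scale, 71 genes had a negative interaction and 12 a positive one. All of these are differences of differences, so a negative interaction says that the level with both agents lay below what the sum of the single changes gives. The median over all genes tested was -0.11, and with quantile scaling of the libraries it was 0.03. That scaling called 1428 positive and 1014 negative interactions, so 58.5% were positive against 42.6% here, and the balance of directions depends on the scaling. In fits without 1 library, 1463 to 2719 genes were called; the fits without KJ-PYR-9 1 and KJ-PYR-9 2 called 1463 and 1489, and 1306 genes were called in all 12 such fits.

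Most genes with a called interaction had the antagonism shape, in which the interaction has the sign opposite to the summed single changes and the rule for synergy is not met. It held 1741 genes, 76.3% of those called, and in 169 of them neither single change was called. DEX gave the larger single change in 668 of them with a negative interaction and 584 with a positive one, and KJ-PYR-9 in 304 and 185. For 1226 of the 1741, the combination did not differ from VEH by the test, and the same held for 8637 of all 13616 genes tested. In the synergy shape the combination went beyond both single changes in the direction of the interaction. It held 542 genes, 204 higher and 338 lower, and in 298 of them neither single change was called. Synergy here does not require single changes in the direction of the combination. It includes genes such as IER3 and PDE4B, which each agent raised and both together lowered below VEH. Such reversals among the 542 were not counted. With the replicate block there were 2978 antagonism and 1318 synergy genes, and without KJ-PYR-9 1 and KJ-PYR-9 2 there were 279 and 303 synergy genes. VEH enters both single changes, and VEH, DEX and KJ-PYR-9 enter the interaction with signs opposite to those they have in the single changes. Error in these libraries therefore shifts genes toward antagonism, and the split between shapes is a description, not a test. In the plot of the combination against the summed changes, these genes form a flat band beside the line of additivity.

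**Figure D1:**
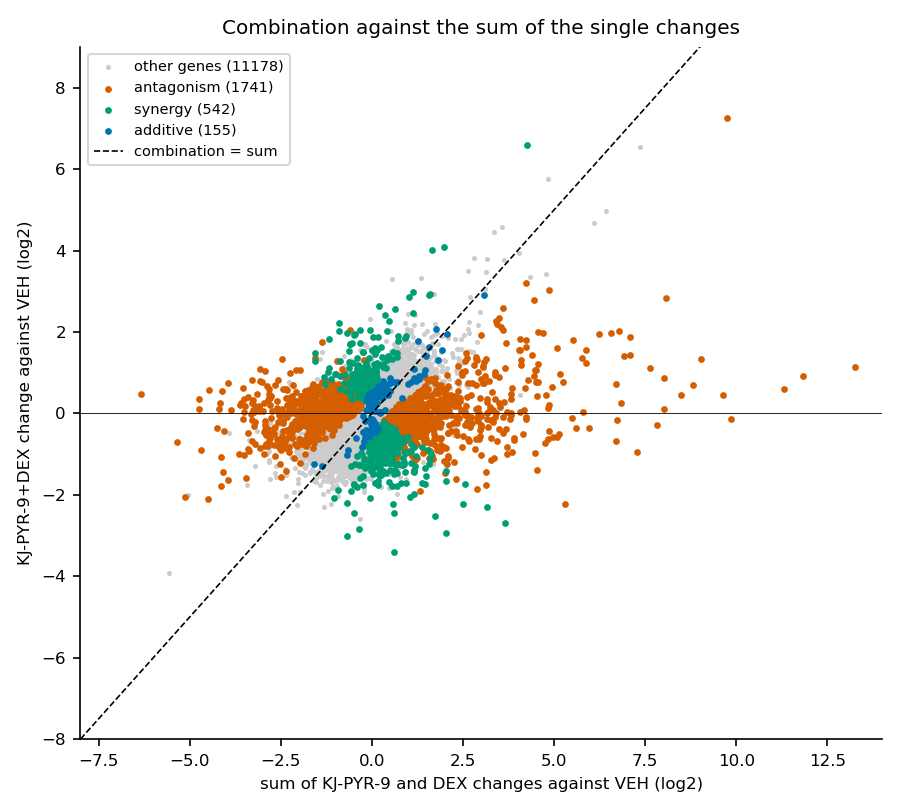
Change with KJ-PYR-9+DEX against VEH (vertical, log2) plotted against the sum of the KJ-PYR-9 and DEX changes (horizontal, log2), 1 point per gene, coloured by shape. The 1741 antagonism genes form a flat band. With both agents 1226 of them, and 8637 of all 13616 genes tested, did not differ from VEH by the test. The dashed line marks a combination equal to the sum.

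KJ-PYR-9 alone raised 3455 genes (25.4% of those tested) and lowered 2380 (17.5%), and DEX alone raised 1294 (9.5%) and lowered 1092 (8.02%). In KJ-PYR-9+DEX 2507 genes (18.4%) were higher than in VEH and 2472 (18.2%) lower. Both agents raised 292 genes. For 253 of these the interaction was called, and in 144 of the 253 the combination did not differ from VEH. Among the 184 genes that both agents lowered, the interaction was called for 173, of which 129 did not differ from VEH in the combination. Over all genes tested the interaction was called for 16.8%, and the combination did not differ from VEH for 8637 of 13616. The genes of these sets were chosen by single changes that share libraries with the interaction, so their counts are a description and no test.

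Immediate early genes had, with the CREB list, the lowest median interaction of the 35 lists. Of the 30 tested, 26 had a called negative interaction and 0 a positive one, against 9.62% and 7.15% of all genes tested. The median interaction was -4.45. KJ-PYR-9 alone raised 28 of the 30 and DEX alone 25, against 25.4% and 9.5% of all genes tested. The median changes were 2.65 and 2.03, while the median change with both was 0.45. In the fits without 1 library, 25 to 26 were called lower. These genes respond within minutes, and the labels used here do not say when the libraries of the 4 groups were harvested relative to each other. The part of harvest timing in their levels was not tested.

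FOS, a subunit of the AP-1 transcription factor, read 104, 64.9 and 153 in VEH, 6528, 5629 and 5868 in DEX, 21736, 13909 and 16939.7 in KJ-PYR-9 and 279, 157 and 257 in KJ-PYR-9+DEX. With both agents FOS stayed slightly above the VEH libraries and far below every library of either single agent, and no groups overlapped. The interaction was -12.13 (SE 0.43, adjusted p = 7.93e-08), where the changes against VEH were 7.40 with KJ-PYR-9, 5.87 with DEX and 1.14 with both (adjusted p = 0.0193). FOSB, a second AP-1 subunit, averaged 62.03, 807, 1749.6 and 86.7 in the same order of groups, an interaction of -8.03 (SE 0.35, adjusted p = 3.35e-07). JUN, the partner of FOS, had group means of 3489, 9067, 24544 and 3722, and the interaction was -4.11 (SE 0.27, adjusted p = 4.42e-06). JUN rose more with KJ-PYR-9 (2.81) than with DEX (1.38), and with both agents it did not differ from VEH by the test (0.08, adjusted p = 0.761).

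EGR1, a zinc finger factor with a pair of CArG boxes in the sequence shown above, read 587, 369 and 1002 in VEH, 10857, 10815 and 11613 in DEX, 30809.9, 21391 and 26951 in KJ-PYR-9 and 955, 531 and 1073 in KJ-PYR-9+DEX. The libraries with both agents overlapped VEH, and each single agent lay above both groups. The interaction was -9.20 (SE 0.48, adjusted p = 1.35e-06). NR4A1, an orphan nuclear receptor, read 108, 86.2 and 181 in VEH, 3584, 3791 and 4316 in DEX, 10981, 8028 and 9308 in KJ-PYR-9 and 273, 119.8 and 185 in KJ-PYR-9+DEX. The combination again overlapped VEH and lay far below each agent alone, with an interaction of -10.69 (SE 0.44, adjusted p = 2.43e-07). NR4A2 and NR4A3, its relatives, had interactions of -10.90 (SE 0.55, adjusted p = 1.06e-06) and -8.12 (SE 0.47, adjusted p = 2.67e-06).

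ATF3, a stress-induced factor of the CREB family, read 368, 286 and 342 in VEH, 3783, 3459 and 3550.2 in DEX, 5781, 4345 and 4287 in KJ-PYR-9 and 156, 167 and 191 in KJ-PYR-9+DEX. Unlike FOS and EGR1, it was lower with both agents than in any VEH library (-0.95, adjusted p = 0.00319), and the interaction was -8.23 (SE 0.22, adjusted p = 5.99e-09). Among the immediate early genes, 4 had no called interaction: FOSL1, IER5, SRF and TIPARP. Of these FOSL1, an AP-1 subunit, was called with the replicate block (adjusted p = 0.00653). TIPARP, a target of the aryl hydrocarbon receptor, had group means of 1562, 5507, 714 and 3745 and an interaction of 0.53 (SE 0.41, adjusted p = 0.41).

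**Figure D2:**
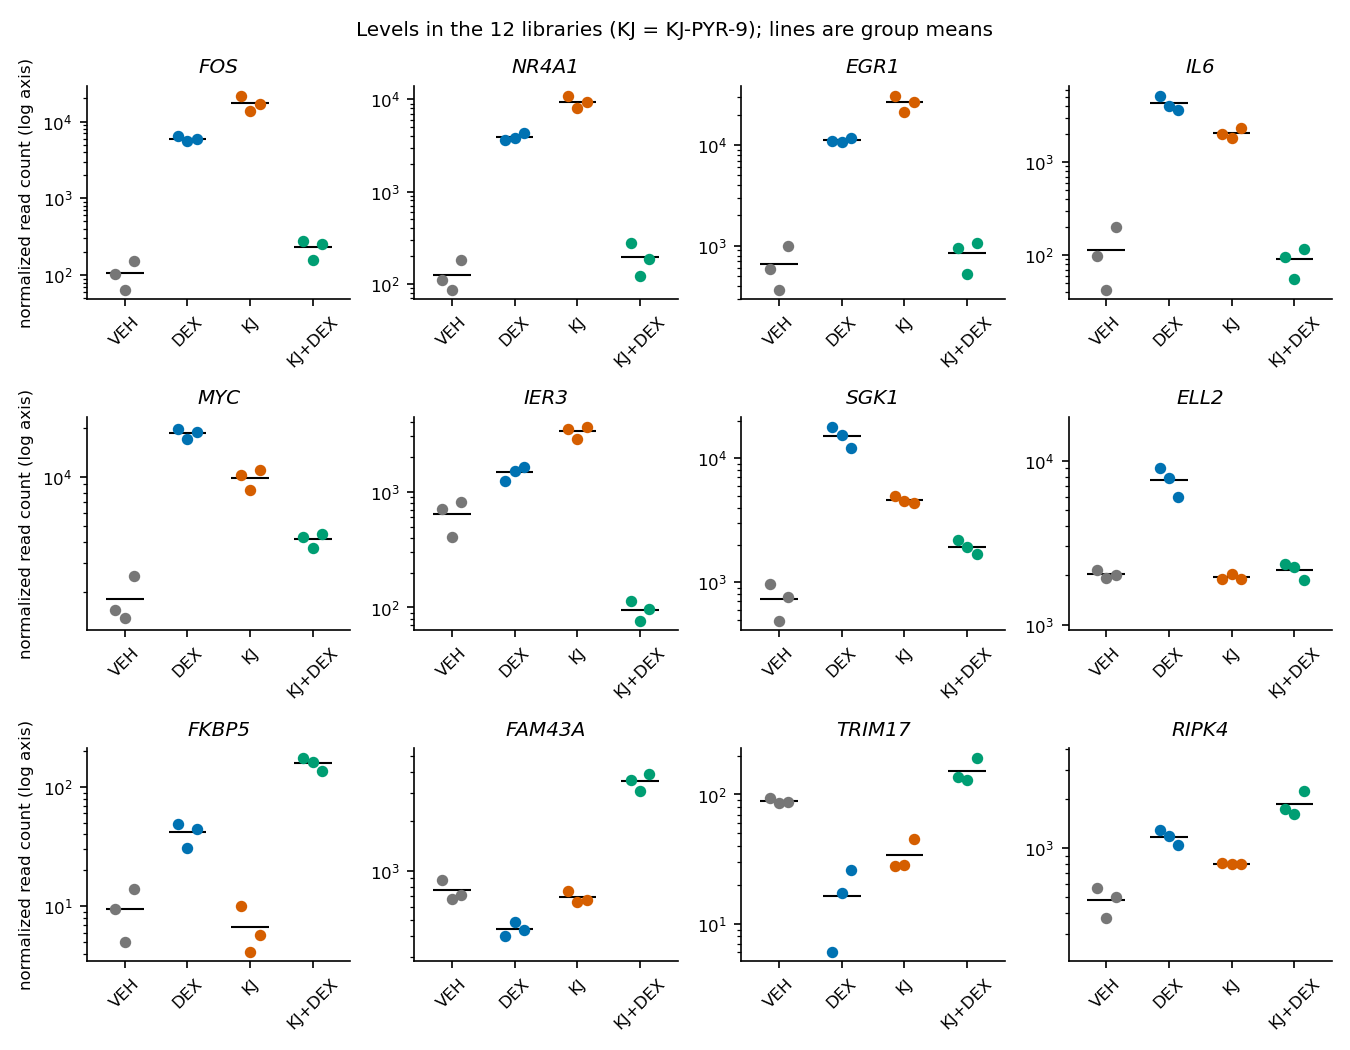
Normalized read count of 12 genes in each of the 12 libraries (log axis, each panel with its own range; points are libraries, lines group means, KJ is KJ-PYR-9). NR4A1, EGR1 and IL6 are high with either agent and overlap VEH with both, FOS with both lies between VEH and the single agents, IER3 is below VEH with both, ELL2 is high with DEX alone, and FKBP5 and FAM43A are highest with both.

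MYC itself, whose protein KJ-PYR-9 targets, followed the same shape with less complete loss. Its transcript read 1551, 1378 and 2489.8 in VEH, 19573, 16916 and 18783 in DEX, 10272, 8283 and 11004 in KJ-PYR-9 and 4305, 3666 and 4510.3 in KJ-PYR-9+DEX. Each agent raised it, DEX by 3.40 and KJ-PYR-9 by 2.49, and the combination remained 1.25 above VEH (adjusted p = 0.00389). The interaction was -4.63 (SE 0.30, adjusted p = 4.38e-06), and the 4 groups did not overlap. Since the inhibitor acts on the protein, the transcript does not check the labels. In the MYC network, 3 of 11 tested genes had a negative interaction and 1 a positive one, against 9.62% and 7.15% of all genes tested. The median was -0.18. MXD1, which competes with MYC for MAX, read 152, 124 and 167 in VEH, 219.6, 197 and 254 in DEX, 261, 245 and 303 in KJ-PYR-9 and 100.3, 79.5 and 88.4 in KJ-PYR-9+DEX and had an interaction of -2.18 (SE 0.23, adjusted p = 0.000113). MGA, another MAX partner, had -0.78 (SE 0.17, adjusted p = 0.00965), and MLXIP, of the MLX branch, rose beyond both single agents (interaction 1.08, SE 0.24, adjusted p = 0.0109). With the replicate block MXI1 (adjusted p = 0.022) and MXD4 (adjusted p = 0.0365), of the MXD family, were also called, lower and higher. MNT, another MAX partner, was called in neither fit and averaged 664, 481, 1303 and 1432.

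Counts in the lists of MYC target genes are read against the 9.62% of all genes with a negative interaction, or 19.95% with the replicate block. In the list of metabolic and growth genes that depend on MYC, 2 of 28 had a negative interaction, MTHFD2 (-1.01, SE 0.21, adjusted p = 0.00841) and SLC3A2 (-1.28, 0.35, 0.0305), and the SLC3A2 call was lost in 8 of the 12 fits without 1 library. With the replicate block 6 were called lower and 1 higher. Ribosome biogenesis genes gave 3 lower and 1 higher call among 35, and ribosomal protein genes 8 lower among 52, with a median of -0.45. None of these ribosomal calls was kept in every fit without 1 library, and RPS6, of the small subunit, read 9918, 11973 and 11109.5 in VEH, 16278, 16000.2 and 13252 in DEX, 13518, 15129 and 13742 in KJ-PYR-9 and 10713, 12994 and 11456 in KJ-PYR-9+DEX, with an interaction of -0.73 (SE 0.19, adjusted p = 0.0236). After GC removal 10 of the 52 were called lower, against 1148 of all 13378 genes in that fit. RPL10A was among the 10 (-0.72, adjusted p = 0.00347) and RPS6 was not (-0.29, adjusted p = 0.298). With the block, 24 of the 52 ribosomal protein genes and 9 of the 35 biogenesis genes were called lower.

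Genes of cAMP and CREB signalling share several members with the immediate early list. Of 17 tested, 14 had a negative interaction, against 9.62% of all genes tested, and the median was -4.48. GEM, a small GTPase, averaged 679, 2214, 6725 and 461, and AREG, an EGF receptor ligand, averaged 3.11, 20.05, 17.5 and 1.69. AREG passed the minimum mean of 10 only through its DEX and KJ-PYR-9 libraries, so its values are a description and no support. PDE4B, which breaks down cAMP, read 312, 223 and 347 in VEH, 647, 536 and 626 in DEX, 633, 521 and 567 in KJ-PYR-9 and 86.3, 84.1 and 102 in KJ-PYR-9+DEX. Both agents alone raised it (by 0.98 and 1.05), and both together lowered it below every VEH library (-1.66), so that it was sorted as synergy. Its interaction was -3.70 (SE 0.25, adjusted p = 5.04e-06). The coactivators CRTC1 and CRTC2 were not called, at 0.32 and 0.08. A cAMP response element lay in 2.5% of the 15238 promoters matched to 10464 tested genes, counted on both strands, and in 6.1% of the 358 promoters of antagonism genes led by KJ-PYR-9 with a negative interaction. It was 3.0% in the 881 promoters of the DEX-led group with a negative interaction, and 0.71% and 1.0% in the KJ-PYR-9-led and DEX-led groups with a positive one. In the synergy genes the share was 1.6% (higher) and 2.9% (lower), and over all 35116 promoters of the table it was 1.6%. CArG boxes lay in 2.8% and 2.0% of the promoters of the KJ-PYR-9-led and DEX-led groups with a negative interaction, 1.0% of those of all genes tested and 1.2% of all promoters. The shares were 0% and 1.2% in the KJ-PYR-9-led and DEX-led groups with a positive interaction. They were 1.2% in synergy-higher and 0.48% in synergy-lower genes.

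The phosphatases and Sprouty proteins that damp MAP kinase signalling followed, with 11 of 18 lower and 1 higher (median -2.38). The shares over all genes tested were 9.62% and 7.15%. DUSP6, an ERK phosphatase, averaged 205, 657, 864 and 126 in VEH, DEX, KJ-PYR-9 and KJ-PYR-9+DEX (interaction -4.55, SE 0.43, adjusted p = 6.01e-05). DUSP10, a phosphatase of JNK and p38, read 73.04, 47.3 and 79.7 in VEH, 259, 214 and 189 in DEX, 271, 263 and 306 in KJ-PYR-9 and 72.2, 55.3 and 64.9 in KJ-PYR-9+DEX, with no overlap between the single agents and the other libraries, and an interaction of -3.85 (SE 0.28, adjusted p = 1e-05). DUSP16 read 1229, 1031 and 1258 in VEH, 1879, 1866 and 1859 in DEX, 2140.1, 2065 and 2166 in KJ-PYR-9 and 672, 583 and 611 in KJ-PYR-9+DEX, below VEH with both agents (-0.91, adjusted p = 0.000822). DUSP7 was the exception: it averaged 607, 402, 715 and 1393 and its interaction was positive (interaction 1.57, SE 0.31, adjusted p = 0.00615).

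Inflammatory cytokines were among the genes with the largest negative interactions. In the NF-kB list, 14 of 23 tested genes had a negative interaction and none a positive one, against 9.62% and 7.15% of all genes tested. The median was -1.72. IL6, an inflammatory cytokine with an NF-kB site in the sequence shown above, read 96.9, 42.7 and 203 in VEH, 5177, 4000.3 and 3625 in DEX, 2001, 1795 and 2308 in KJ-PYR-9 and 96.3, 55.3 and 118 in KJ-PYR-9+DEX. The combination lay within the VEH range, while the libraries of each agent alone were all above it, and the interaction was -10.01 (SE 0.64, adjusted p = 4.42e-06). CXCL2, a neutrophil chemokine, read 159, 105 and 313 in VEH, 5631, 4054 and 3541 in DEX, 1978, 1321 and 1548 in KJ-PYR-9 and 138, 114 and 185 in KJ-PYR-9+DEX. It overlapped VEH in the same way (interaction -8.10, SE 0.50, adjusted p = 3.75e-06). CXCL8, a related chemokine, read 137, 89.3 and 288 in VEH, 1836, 1486 and 1615 in DEX, 559, 436 and 717 in KJ-PYR-9 and 26.1, 25.3 and 49.1 in KJ-PYR-9+DEX. It went below every VEH library with both agents (-2.22, adjusted p = 0.00435), with an interaction of -7.51 (SE 0.54, adjusted p = 8.79e-06). CCL20, another chemokine, averaged 1.42, 37.6, 2.36 and 2.73, so it passed the minimum mean of 10 only through its DEX libraries. Its interaction of -4.32 (SE 0.95, adjusted p = 0.0114) is therefore a description and no support. The NF-kB subunits NFKB1, RELA and RELB were not called (-0.57, -0.11 and -0.42), though NFKB1 was with the replicate block (adjusted p = 0.00561). REL was called, at -2.14 (adjusted p = 0.000148). NF-kB sites, searched on both strands like all motifs here, lay in 2.6% of promoters of DEX-led antagonism genes with a negative interaction, in 2.8% for KJ-PYR-9-led antagonism genes of either sign and in 3.6% of those of synergy-lower genes, against 1.9% for genes tested and 1.7% for all promoters. The share was 0.86% for DEX-led antagonism genes with a positive interaction and 1.2% for synergy-higher genes.

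Glucocorticoid receptor targets differed in how the agents combined. DEX alone raised 24 of the 30 tested and lowered none, and KJ-PYR-9+DEX raised 22 against VEH, with median changes of 1.96 and 1.93. Of all genes tested, DEX raised 9.5% and the combination 18.4% against VEH. The interaction was called negative for 15 of the 30 and positive for 3, against 9.62% and 7.15% of all genes tested. Seen from KJ-PYR-9 alone, adding DEX raised 16 of the 30 and lowered 2, where 3.17% of all genes tested were higher and 4.38% lower in that comparison. NR3C1, the receptor, read 3160.2, 3004 and 2380.4 in VEH, 4655, 4332 and 3151 in DEX, 1954, 1842 and 1653 in KJ-PYR-9 and 1494, 1598 and 845 in KJ-PYR-9+DEX. Its interaction of -1.02 (SE 0.34, adjusted p = 0.0649) was not called, though it was after GC removal (adjusted p = 0.0329) and with the replicate block (adjusted p = 0.00557), and the combination was below VEH (-1.16, adjusted p = 0.00901).

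Among the targets with a larger response, FKBP5, a co-chaperone of the receptor, read 9.46, 4.96 and 14.1 in VEH, 48.8, 30.99 and 44.9 in DEX, 10.04, 4.16 and 5.67 in KJ-PYR-9 and 177, 164 and 136 in KJ-PYR-9+DEX. The 3 values with both agents exceeded all others, KJ-PYR-9 alone did not differ from VEH by the test (-0.44, adjusted p = 0.317), and the interaction was 2.36 (SE 0.49, adjusted p = 0.00835). ZBTB16, a zinc finger repressor, read 0.757, 0 and 1.56 in VEH, 30.5, 18.2 and 16.7 in DEX, 1.25, 1.19 and 1.62 in KJ-PYR-9 and 134, 147 and 204 in KJ-PYR-9+DEX. The VEH libraries held 3 recovered reads for it in all, so no fold against VEH is given. ZBTB16 passed the minimum mean of 10 only through the groups with DEX, so its interaction is a description and no support. With both agents it was 2.86 above DEX (adjusted p = 9.88e-05), and the combination overlapped no other group. The interaction was called by limma (adjusted p = 0.00577) and not by edgeR (adjusted p = 0.306). GLUL, glutamine synthetase, averaged 822, 1051, 964 and 2342 and had an interaction of 0.93 (SE 0.18, adjusted p = 0.0059). TSC22D3, which encodes the mediator GILZ, read 32.5, 12.6 and 39.1 in VEH, 909, 552 and 413 in DEX, 38.9, 22.6 and 37.3 in KJ-PYR-9 and 1589, 1279 and 1395 in KJ-PYR-9+DEX. Both groups with DEX were far above the others, and the interaction of 0.93 (SE 0.56, adjusted p = 0.285) was not called.

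Other targets stayed high with both agents, though below the sum of the single changes. KLF9, a Kruppel-like factor, read 199, 174 and 244 in VEH, 2367, 2002 and 1625 in DEX, 398, 432 and 368 in KJ-PYR-9 and 1914, 1709.5 and 2028 in KJ-PYR-9+DEX. Both groups with DEX were far above the others and overlapped each other, KJ-PYR-9 alone raised KLF9 by 0.96, and the interaction was -1.04 (SE 0.24, adjusted p = 0.0141). PER1, a clock repressor, read 431, 347 and 274 in VEH, 1071, 1274 and 1191 in DEX, 1182, 1123 and 1416 in KJ-PYR-9 and 2224, 1977 and 2042 in KJ-PYR-9+DEX (interaction -1.02, SE 0.24, adjusted p = 0.0155). It was highest with both agents, though less than the sum. PDK4, a kinase that limits pyruvate oxidation, averaged 7.31, 1328, 38.3 and 1164, with an interaction of -2.50 (SE 0.52, adjusted p = 0.00813).

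A further set was near VEH with both agents or well below DEX alone. ELL2, an elongation factor, read 2166, 1937 and 2007 in VEH, 9063, 7858 and 6019 in DEX, 1889, 2039.8 and 1909 in KJ-PYR-9 and 2347, 2246 and 1883 in KJ-PYR-9+DEX. It rose with DEX alone (1.89), and with both agents it overlapped VEH, an interaction of -1.75 (SE 0.22, adjusted p = 0.00045). SGK1, a kinase that regulates ion transport, read 962, 491 and 758 in VEH, 17971, 15486 and 12035 in DEX, 4926, 4552 and 4335 in KJ-PYR-9 and 2210.4, 1908 and 1698 in KJ-PYR-9+DEX. It was an antagonism gene in which all 4 groups were apart, with -5.65 (SE 0.33, adjusted p = 2.67e-06). BIRC3, an inhibitor of apoptosis, averaged 54.5, 298, 43.5 and 62.4 (interaction -2.03, SE 0.45, adjusted p = 0.0116), and TNFAIP3, an inhibitor of NF-kB, 101, 326, 217 and 141 (interaction -2.27, SE 0.34, adjusted p = 0.00134). DUSP1, both a glucocorticoid target and an immediate early gene, read 549.8, 245 and 370.4 in VEH, 6992, 7638 and 6478 in DEX, 5840.0, 4959 and 4822 in KJ-PYR-9 and 3097, 2095 and 2879 in KJ-PYR-9+DEX. Its level with both agents stayed 2.85 above VEH (adjusted p = 7.95e-05), with an interaction of -5.22 (SE 0.36, adjusted p = 6e-06). The palindromic glucocorticoid response element lay in 1 of all 35116 promoters and in 0 of the 15238 of genes tested. One arm of it, AGAACA, lay in 8.0% of the latter, in 7.8% of those of synergy-higher genes and in 9.9% of those of synergy-lower genes.

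**Figure D3:**
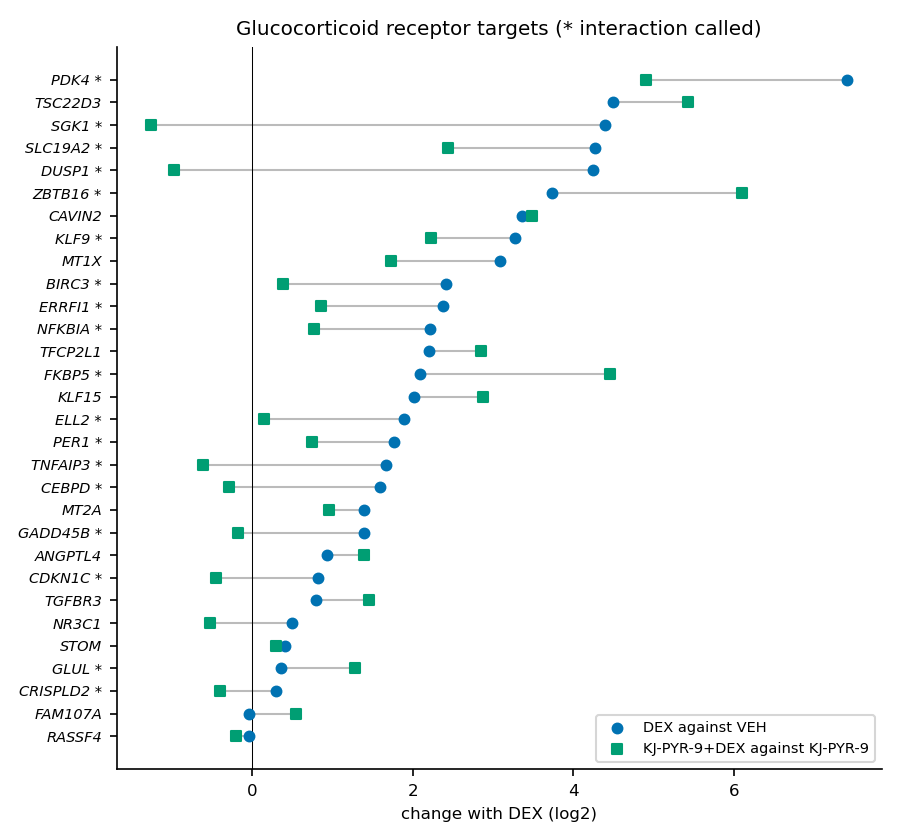
Change with DEX (log2) for the 30 tested glucocorticoid receptor targets, in the absence of KJ-PYR-9 (circles) and in its presence (squares), each pair joined by a line; a star marks a called interaction. FKBP5 and ZBTB16 lie further right with KJ-PYR-9, whereas SGK1, DUSP1 and ELL2 lie further left. ZBTB16 had hardly any reads in VEH, so the position of its circle is uncertain, and edgeR did not call its interaction.

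Synergy toward a higher level was led by FAM43A, which read 883, 677 and 714 in VEH, 403, 484 and 437 in DEX, 757, 648 and 667 in KJ-PYR-9 and 3594, 3067 and 3911 in KJ-PYR-9+DEX. DEX alone lowered it (-0.77, adjusted p = 0.00735) and both agents raised it (2.22), and the interaction was 3.12 (SE 0.21, adjusted p = 5.26e-06). IRF2BPL, a nuclear protein with a RING domain, was chosen after its values were seen. It read 873, 706 and 828 in VEH, 796, 843 and 739 in DEX, 829, 761 and 762 in KJ-PYR-9 and 3464, 2906 and 3602 in KJ-PYR-9+DEX, so neither agent alone moved it by the test and both together raised it by 2.05 (adjusted p = 1.33e-05). Chosen likewise, SEC14L2, a lipid transfer protein, read 216, 231 and 195 in VEH, 442, 501 and 393 in DEX, 193, 239 and 203 in KJ-PYR-9 and 1621, 1503 and 1519 in KJ-PYR-9+DEX (interaction 1.82, SE 0.19, adjusted p = 0.000126). DEX alone gave a smaller rise of 1.05 (adjusted p = 0.000755). ISLR, a secreted leucine-rich protein, and ANXA2R, the annexin A2 receptor, had interactions of 2.31 (SE 0.43, adjusted p = 0.00473) and 2.19 (SE 0.25, adjusted p = 0.000198).

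In the synergy genes with the largest negative interactions, the combination fell below VEH although a single agent had raised the gene. IER3, an immediate early regulator of survival, read 716, 404 and 821 in VEH, 1245, 1512 and 1643 in DEX, 3477, 2863 and 3644 in KJ-PYR-9 and 114, 77.2 and 96.3 in KJ-PYR-9+DEX. Every value with both agents lay below every VEH value (-2.70, adjusted p = 0.000101), and the interaction was -6.35 (SE 0.36, adjusted p = 2.46e-06). LURAP1L read 919, 416 and 808 in VEH, 1376, 1223 and 1439.5 in DEX, 1791, 1658 and 2456 in KJ-PYR-9 and 148, 135 and 149 in KJ-PYR-9+DEX, again with every value of the combination below VEH (interaction -4.73, SE 0.37, adjusted p = 1.41e-05). PDCD1LG2, which encodes the checkpoint ligand PD-L2, read 38.6, 41.2 and 57.8 in VEH, 107, 81.1 and 86.6 in DEX, 53.3, 61.8 and 75.4 in KJ-PYR-9 and 16.05, 14.98 and 21.6 in KJ-PYR-9+DEX. DEX alone raised it (0.99), the KJ-PYR-9 change was not called, and the interaction was -2.79 (SE 0.29, adjusted p = 0.000113). ID4, an inhibitor of helix-loop-helix factors, and PLK2, a p53 target kinase, instead showed no called change with either agent alone. ID4 read 429.5, 243 and 288 in VEH, 469.8, 415 and 349.7 in DEX, 384, 459 and 404 in KJ-PYR-9 and 122, 92.2 and 72.7 in KJ-PYR-9+DEX (interaction -2.53, SE 0.33, adjusted p = 0.000535), and PLK2 read 2949, 3348 and 3831 in VEH, 3951, 4029 and 3726 in DEX, 3498, 3309.9 and 2959.9 in KJ-PYR-9 and 951, 1045 and 975 in KJ-PYR-9+DEX (interaction -1.93, SE 0.18, adjusted p = 5.55e-05).

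Of the 8 named genes with the largest positive interaction, 7 were lowered by each agent alone. TRIM17, a ubiquitin ligase, read 93.8, 85.5 and 87.5 in VEH, 6.10, 17.3 and 26.1 in DEX, 28.2, 28.5 and 45.4 in KJ-PYR-9 and 136, 130.2 and 193 in KJ-PYR-9+DEX. The combination overlapped no single-agent library and did not differ from VEH by the test (adjusted p = 0.146), and the interaction was 4.71 (SE 0.56, adjusted p = 0.000283). EGLN2, a prolyl hydroxylase of hypoxia-inducible factors, read 265, 259 and 324 in VEH, 39.7, 82.03 and 109 in DEX, 126, 134 and 127 in KJ-PYR-9 and 317, 273 and 379 in KJ-PYR-9+DEX. The combination overlapped VEH (interaction 3.28, SE 0.41, adjusted p = 0.000419). MYH11, a smooth muscle myosin, had an interaction of 3.23, SEMA4G, a semaphorin, 3.21, ZIC4, a zinc finger factor, 2.66, FAXDC2 2.65 and AMER1, a regulator of Wnt signalling, 2.37. Being called in every fit without 1 library was part of the rule that chose these 5, so it adds no support. With KJ-PYR-9 as the larger single change, HOXC8, a homeobox factor, read 319, 391 and 244 in VEH, 192, 218 and 145 in DEX, 142, 147 and 109 in KJ-PYR-9 and 271, 336 and 214 in KJ-PYR-9+DEX (interaction 1.80, SE 0.33, adjusted p = 0.00402), and PANK1, a pantothenate kinase, read 174, 142 and 161 in VEH, 88.5, 86.6 and 69.9 in DEX, 53.9, 51.7 and 51.1 in KJ-PYR-9 and 82.2, 91.01 and 92.4 in KJ-PYR-9+DEX (interaction 1.71, SE 0.18, adjusted p = 0.000152).

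Both single changes were called, the interaction was not, and its 95% interval lay within 2-fold for 155 genes, of which 96 rose with KJ-PYR-9 and fell with DEX, 39 the reverse, 18 rose with both and 2 fell with both. A further 222 genes with both single changes called had a wider interval and could not be placed. RIPK4, a kinase of epidermal differentiation, read 569.5, 374 and 503 in VEH, 1281, 1178 and 1041 in DEX, 815, 802 and 794 in KJ-PYR-9 and 1737, 1615 and 2225 in KJ-PYR-9+DEX. Its combined change of 1.95 was close to the sum of 2.05, and the interval of the interaction was -0.64 to 0.45. TLE1, a Groucho corepressor, rose by 0.66 and 0.90 singly and by 1.64 together (interval -0.53 to 0.68). AXIN2, a negative regulator of Wnt signalling, fell with each agent and read 135, 151 and 122 in VEH, 57.96, 77.5 and 68.9 in DEX, 78.4, 100.4 and 89.96 in KJ-PYR-9 and 56.2, 49.5 and 64.9 in KJ-PYR-9+DEX (interval -0.15 to 0.84). PIM3, a kinase, read 499.5, 555 and 631 in VEH, 259, 357 and 431 in DEX, 1147, 993 and 1159 in KJ-PYR-9 and 646, 692 and 977 in KJ-PYR-9+DEX, where the combination lay above VEH and below KJ-PYR-9 alone without passing the test against VEH (adjusted p = 0.112). With the replicate block 1504 genes were additive and with library weights 1559. The number also varied widely between fits without 1 library, from 21 without VEH 3 to 841 without KJ-PYR-9+DEX 3.

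KJ-PYR-9 alone raised 18 of 30 genes of the integrated stress and unfolded protein response and lowered 2, and DEX alone raised 12 and lowered 0. With both agents 4 were higher and 9 lower than VEH. In this list 17 genes had a negative interaction, none a positive one, and the median was -0.99. Of all genes tested, KJ-PYR-9 raised 25.4% and lowered 17.5%, and DEX raised 9.5% and lowered 8.02%. The combination was higher than VEH for 18.4% and lower for 18.2%. Negative calls in this and the next 3 lists are read against 9.62% of all genes tested, or 19.95% with the replicate block. PPP1R15A, a phosphatase subunit that restores translation, read 636, 883 and 967 in VEH, 1562, 1842 and 2019 in DEX, 4239, 3733 and 3842 in KJ-PYR-9 and 698, 788 and 996 in KJ-PYR-9+DEX (interaction -3.40, SE 0.26, adjusted p = 1.41e-05). DDIT3, the factor CHOP, averaged 301, 603, 1309.9 and 138 (interaction -4.40, SE 0.48, adjusted p = 0.000158). The chaperone genes HSPA1A and HSPA1B, near-identical copies whose reads can be misassigned, had interactions of -2.38 (SE 0.40, adjusted p = 0.00251) and -2.81 (0.41, 0.00118), and with DNAJB1 they were the 3 called of 21 heat shock genes (10 with the replicate block). OSGIN1, an NRF2 target, read 66.98, 85.5 and 114 in VEH, 116, 114 and 122 in DEX, 284, 299.6 and 372 in KJ-PYR-9 and 102, 89.9 and 102 in KJ-PYR-9+DEX (interaction -2.11, SE 0.26, adjusted p = 0.000344), and 7 of 26 NRF2 genes were called lower (12 with the block). HMOX1, heme oxygenase, read 3935, 3748 and 4494 in VEH, 2578, 3407 and 3498 in DEX, 8238, 8788 and 9654 in KJ-PYR-9 and 2830.2, 3088 and 2979 in KJ-PYR-9+DEX. It was high with KJ-PYR-9 alone, and the combination overlapped DEX (interaction -1.21, SE 0.20, adjusted p = 0.00258). Of 9 metallothionein and zinc genes 4 were lower, among them the zinc exporter SLC30A1, which read 409, 587 and 513 in VEH, 1937, 1384 and 1482 in DEX, 1133, 1110.2 and 1536 in KJ-PYR-9 and 331, 471 and 387 in KJ-PYR-9+DEX (interaction -3.33, SE 0.29, adjusted p = 3.15e-05).

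Fewer histone genes passed the test with both agents than with KJ-PYR-9 alone. Of 44 replication-dependent histone genes, which also have near-identical copies, KJ-PYR-9 alone raised 33 and the combination 13 against VEH. The interaction was negative for 11 and positive for 1 (21 and 3 with the block). Of all genes tested, KJ-PYR-9 raised 25.4% and the combination 18.4%. The interaction was negative for 9.62% and positive for 7.15% of them (19.95% and 12.35% with the block). H2BC4 read 1603, 1969 and 1849 in VEH, 2294, 2646 and 2233 in DEX, 5450.5, 5822 and 6241 in KJ-PYR-9 and 2154, 2637 and 2565 in KJ-PYR-9+DEX (interaction -1.66, SE 0.19, adjusted p = 0.000231), with DEX and the combination overlapping. Respiratory chain genes (32), DNA replication genes (32) and mitosis genes (29) had no called interaction by limma. At an unadjusted p under 0.05 there were 1, 5 and 2 such genes, and edgeR and DESeq2 called 0 in each list. With the replicate block 3, 5 and 8 of them were called lower.

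**Figure D4:**
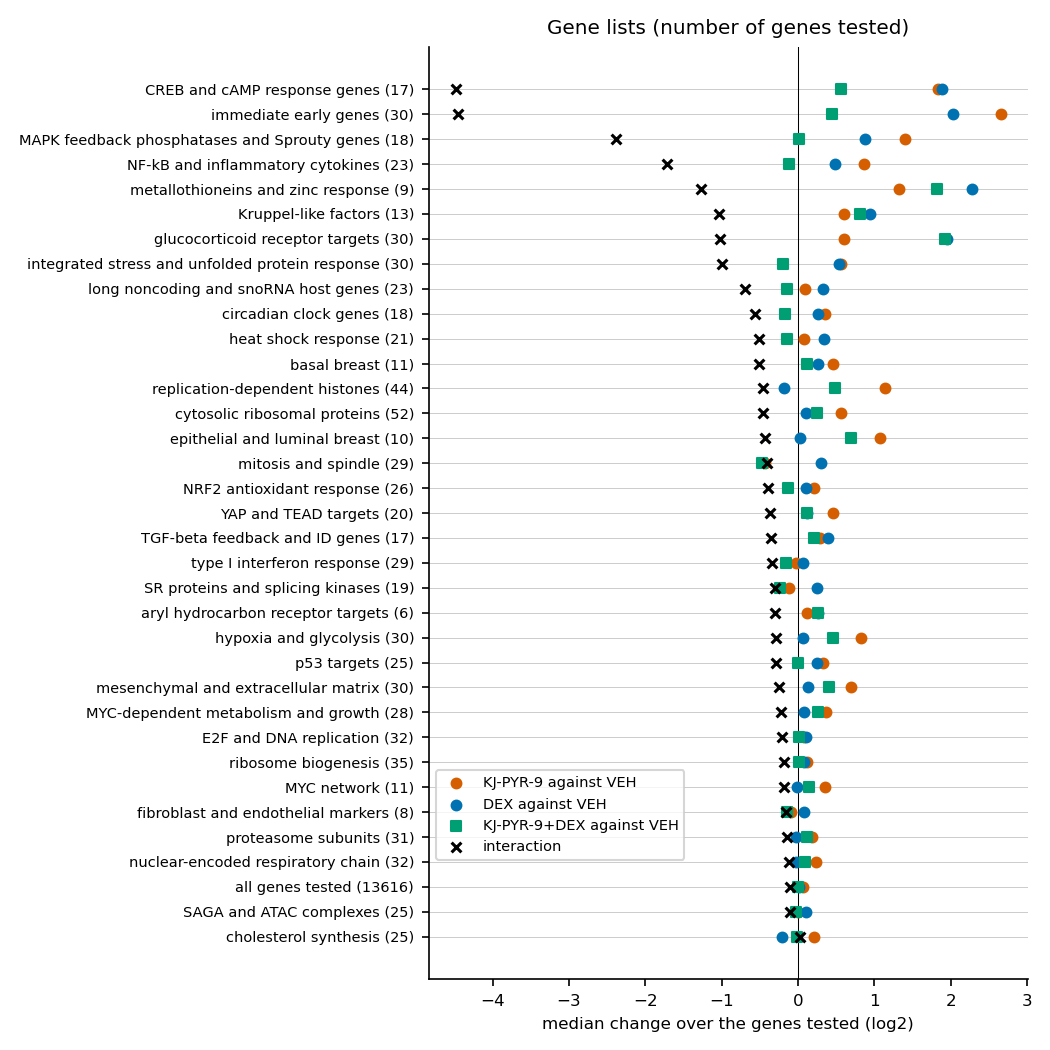
Median log2 change over the tested genes of each list (number in parentheses) with KJ-PYR-9, DEX and both against VEH, and the median interaction (crosses). The immediate early and CREB lists lie furthest left at -4.45 and -4.48, and the SAGA, respiratory chain and proteasome lists lie near the -0.11 of all genes, at -0.10, -0.12 and -0.15.

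Of 30 mesenchymal and matrix genes 8 had a negative interaction, and among them SNAI2, a repressor of epithelial genes, read 647, 417 and 516 in VEH, 2642, 1803 and 1524 in DEX, 1077, 993 and 1079 in KJ-PYR-9 and 632, 459.6 and 629 in KJ-PYR-9+DEX (interaction -2.78, SE 0.32, adjusted p = 0.000208), and ZEB1, another such repressor, 1050.1, 915 and 902 in VEH, 2077, 1831 and 1866 in DEX, 1153, 1129 and 1241 in KJ-PYR-9 and 989, 634 and 804 in KJ-PYR-9+DEX (interaction -1.57, SE 0.22, adjusted p = 0.000975). In both genes DEX alone gave the highest values and the combination overlapped VEH. The 8 of 30 are read against 9.62% of all genes tested with a negative interaction. FOXC1, a forkhead factor of basal breast cancer, read 1217, 904 and 953 in VEH, 2175, 2294 and 2004 in DEX, 2528, 3066 and 2620.3 in KJ-PYR-9 and 680.0, 673 and 711 in KJ-PYR-9+DEX. Each agent raised it, and with both it was below VEH (-0.56, adjusted p = 0.015), with an interaction of -3.07 (SE 0.20, adjusted p = 4.42e-06). KLF6 and KLF4, Kruppel-like factors, kept part of the rise with both agents. KLF6 read 3301, 2639 and 4112 in VEH, 28295, 25662 and 21501 in DEX, 10659, 9461 and 10637 in KJ-PYR-9 and 8254, 7017 and 7861 in KJ-PYR-9+DEX (interaction -3.33, SE 0.24, adjusted p = 8.93e-06), and KLF4 read 607, 535 and 767 in VEH, 3252, 2650.4 and 3028 in DEX, 2579.7, 2059 and 2914 in KJ-PYR-9 and 1761, 1919 and 2209 in KJ-PYR-9+DEX (interaction -2.59, SE 0.25, adjusted p = 7.02e-05). NFIL3, a clock-linked repressor, read 472, 434 and 538 in VEH, 2016, 1622 and 1359 in DEX, 1071, 1167 and 1012 in KJ-PYR-9 and 433, 328 and 210.3 in KJ-PYR-9+DEX (interaction -3.57, SE 0.34, adjusted p = 5.67e-05), and NEAT1, the long noncoding RNA of paraspeckles, read 4275, 2909 and 3943 in VEH, 21385, 19845 and 25093 in DEX, 24765, 13773 and 15080.5 in KJ-PYR-9 and 4459, 3555 and 4109 in KJ-PYR-9+DEX (interaction -4.69, SE 0.32, adjusted p = 5.64e-06).

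Counts in the other lists are read against the 9.62% of all genes with a negative and 7.15% with a positive interaction, or 19.95% and 12.4% with the replicate block. Among p53 targets 9 of 25 were lower, among YAP targets 8 of 20, among hypoxia and glycolysis genes 5 of 30 (9 with the block) and among clock genes 4 of 18. PMAIP1, the p53 target NOXA, averaged 149, 378, 369 and 97.2 (interaction -3.25, SE 0.28, adjusted p = 3.59e-05), and SLC2A3, a glucose transporter, averaged 8.69, 54.6, 62.8 and 14.1 (interaction -5.53, SE 1.07, adjusted p = 0.00585). SLC2A3 varied widely in VEH, at 0.378, 3.82 and 21.9. Its interaction was -4.32 with a pseudocount of 5 and -5.84 with 0.5, so the size is uncertain. Kruppel-like factors gave 7 lower and 2 higher calls among 13, and noncoding and snoRNA host genes 9 and 2 among 23. The TGF-beta and ID list gave 3 lower and 3 higher calls of 17 (6 and 3 with the block), and the SAGA and ATAC list gave 4 lower and 3 higher of 25 (6 and 6 with the block). Of 19 SR protein and splicing kinase genes 5 were lower (8 with the block, 2 after GC removal), led by the kinase CLK1, which averaged 237, 522, 307 and 155 (interaction -2.11, SE 0.20, adjusted p = 5.79e-05). After GC removal 1148 of all 13378 genes in that fit were called lower. There were 2 lower calls each in the cholesterol (of 25) and basal breast (of 11) lists and 1 each in the interferon (of 29), epithelial (of 10) and aryl hydrocarbon receptor (of 6) lists; with the block, 6 cholesterol, 3 basal, 7 interferon, 2 epithelial and 2 aryl hydrocarbon receptor genes were called lower. PSMA2, a subunit of the proteasome core, was the 1 called gene of 31 proteasome genes (4 lower and 2 higher with the block). It averaged 50.8, 13.6, 3.67 and 33.4, so each agent alone lowered it (-3.50 and -1.86), and its interaction was positive at 4.65 (SE 0.50, adjusted p = 0.000148). In the KJ-PYR-9 libraries 1 read was worth 0.594 to 0.81, so PSMA2 held few reads there and the size of its interaction is uncertain.

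Most genes that changed with KJ-PYR-9 both without and with DEX changed in the same direction; the 2 comparisons use separate libraries. KJ-PYR-9 changed 4719 genes both against VEH and, in the presence of DEX, against DEX, where 33.6% of all genes were higher and 35.1% lower. The direction was the same for 4318 of them, 2510 up and 1808 down. It was opposite for 401, of which 249 rose without DEX and fell with it, and 152 did the reverse. Over the 13616 genes the 2 changes had a Pearson r of 0.489 and a Spearman rho of 0.629, as a description across genes, which are not independent replicates. In bulk RNA a change in the share of cells and a change in RNA per cell cannot be told apart.

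**Figure D5:**
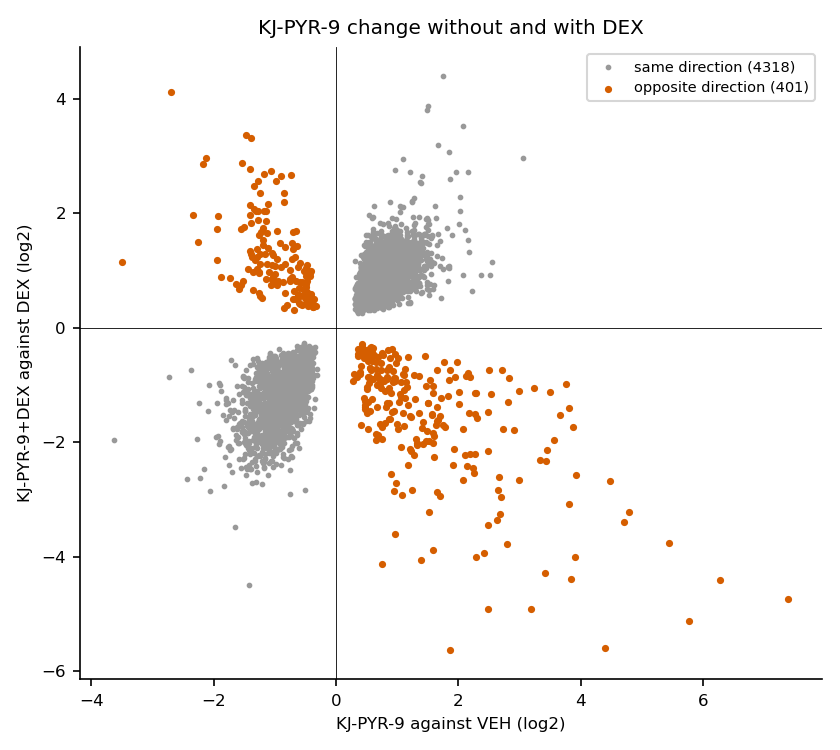
KJ-PYR-9 change with DEX present (vertical, log2) against the change without DEX (horizontal, log2) for the 4719 genes called in both. The 401 genes of opposite direction (orange) fill the upper left and lower right, where FOS is the rightmost point.

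GC content moved with the shapes. The median GC content was 48.4% over all genes tested, 40.7% in synergy-lower and 41.9% in DEX-led antagonism with a negative interaction, and 55.8% in both synergy-higher and DEX-led antagonism with a positive interaction. After trends with GC content and length were removed from each library, 1717 of the 2211 called genes with a GC value remained called in the same direction. By shape these were 171 of 203 synergy-higher, 212 of 333 synergy-lower, 472 of 563 and 436 of 649 DEX-led, and 159 of 164 and 267 of 299 KJ-PYR-9-led genes (positive, then negative interaction). Additive genes that rose with KJ-PYR-9 and fell with DEX had a median GC content of 59.4%, those of the reverse pattern 39.2%, and after the removal 46 additive genes were found. In that fit 27 of the 30 immediate early genes were called lower, against 1148 of all 13378 genes in it. The part of base composition in the other results was not tested.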

How the data were processed

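RNA was sequenced from 12 BT549 libraries after depletion of ribosomal RNA, per the labels' protocols. The authors deposited 1 table per library, a signal of normalized read counts per gene symbol. Build GRCh38 and the tools featureCounts, DESeq2, SAMtools and bcl2fastq are named in the submitters' processing notes; the aligner, the annotation, the strandedness and all versions are not given in the sources used here, so overlapping genes can share reads. Whole reads were recovered (tolerance 0.0001) for 100% of values from the value of 1 read in each library. Of 24290 features, 6462 without a symbol were left out (1.62% to 26.0% of reads) and 32 repeated symbols were summed, which left 17796 genes, 17526 of them matched to RefSeq and 17110 to a length and GC content.

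Genes with a mean of at least 10 were fitted with limma 3.58.1 (R 4.3.3) on log2(value + 1), with 1 mean per group, two-sided tests and Benjamini-Hochberg adjustment over 13616 genes at 0.05; fold changes of low genes are understated on this scale. On simulated data the test recovered 27% of 2-fold and 87% of 4-fold interactions. The changed genes there had a mean of at least 50, and the simulated libraries were independent, without pairing by number. Recovery for lower genes was not measured. Alternatives were edgeR 4.0.16 and DESeq2 1.42.0 on the recovered reads, other pseudocounts, filters, scalings, variance models, removal of GC and length trends, left-out libraries, and the replicate number as a block.

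The residuals of the 18 same-numbered library pairs from different groups correlated at 0.130 to 0.524, and those of the 36 other pairs at -0.468 to 0.236, so the numbers pair the libraries. The reported fit has no block.

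Antagonism, synergy and additive shapes, the 35 gene lists and the named genes were chosen with earlier results of these data known. Named genes were MYC and NR3C1, the 8 largest interactions in each direction that held without each library, the 4 largest of each shape, the 3 of each additive pattern with the largest smaller single change, all protein-coding with a mean of at least 50, and the 3 smallest p of each list with 2 or more called genes. Other list members given as examples, and IRF2BPL and SEC14L2, were chosen after their values were seen. Some named genes are not reported here. Promoters are from RefSeq on GRCh38.p14.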

Additional observations from a re-analysis of the deposited data

Results flagged for a closer look

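KJ-PYR-9 changed 401 genes in opposite directions without and with DEX, and the test of that difference, the interaction, was called for 2283 genes in all (limma, adjusted p under 0.05). Several libraries had more reads on features without a gene symbol than any VEH library, whose highest share was 1.86%. These were DEX 1 with 26.04%, of which 4 features held 25.2% of its reads, and DEX 3 with 2.071%. KJ-PYR-9 1 had 3.098% and KJ-PYR-9 3 had 5.445%. KJ-PYR-9+DEX 1, 2 and 3 had 4.826%, 2.424% and 8.722%. The part of these features in the results was not tested beyond leaving out DEX 1 and KJ-PYR-9+DEX 3, where FOS had an interaction of -12.17 and IL6 of -10.09.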

How the results depend on the processing

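No called interaction of a gene named by the rule changed sign in any alternative that was run; the median over all genes moved from -0.11 to 0.03 with quantile scaling. With the replicate block, positive and negative interactions numbered 1682 and 2717, synergy genes 1318, antagonism genes 2978 and additive genes 1504, and the block kept all 2283 calls; of the named genes it changed the call of NR3C1, FOSL1, NFKB1, MXI1 and MXD4 and of no other. Library weights, whose estimation stopped before convergence, gave 2315 negative interactions, 2989 antagonism and 1559 additive genes. Additive genes numbered 559 with DESeq2, 46 after GC and length removal, 259 where the mean minimum was 50, 57 with no filter, 278 with quantile scaling, 270 with trended and robust variance, 242 without DEX 1 and KJ-PYR-9+DEX 3 and 13 with an interval of 1.5-fold; edgeR gives no interval and so no additive count. Synergy genes numbered 334 without DEX 1 and KJ-PYR-9+DEX 3, and with an interaction of at least 1 there were 327 synergy and 1119 antagonism genes. The cause was not tested. Without 1 library at a time, counts were 619 to 1135 (positive), 844 to 1584 (negative), 279 to 762 (synergy), 1184 to 2223 (antagonism) and 21 to 841 (additive). The synergy count was 323 without DEX 2, 279 and 303 without KJ-PYR-9 1 and 2, 339 without KJ-PYR-9+DEX 3, and 345, 336 and 307 without VEH 1, 2 and 3. Additive genes numbered 26, 36 and 272 without DEX 1, 2 and 3, 63, 55 and 51 without KJ-PYR-9 1, 2 and 3, and 23, 23 and 21 without VEH 1, 2 and 3. Positive and negative calls moved by over 1.5 times without KJ-PYR-9 1 (619 and 844) and KJ-PYR-9 2 (624 and 865). Of 91 named genes with a called interaction, 79 were called without each library, 82 after GC and length removal and 90 with edgeR, and CLK4, an additive gene, was called after that removal (adjusted p = 0.0012); among those that lost the call without at least 1 library were UTP14A, RRP1B, WDR43, RPS4X, RPL10A, SRSF6, SRSF7, USP22, ATXN7L3, SLC3A2 and RPS6. Depth limits low genes most in VEH 3, DEX 1 and KJ-PYR-9+DEX 1 and 3, the shallowest libraries.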

Other observations

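The 13 proteins encoded by mitochondrial DNA, a list chosen after their values were seen, form subunits of the respiratory chain and ATP synthase. DEX alone raised 11 of the 13 transcripts, with a median change of 0.78, and with both agents the median was -0.22. The interaction was negative for 9 and positive for none, with a median of -1.27, and the 9 were called in every fit without 1 library. Of all genes tested, DEX raised 9.5% and the interaction was negative for 9.62%, or 19.95% with the replicate block. COX1 had an interaction of -1.66 (SE 0.18, limma adjusted p = 0.000143), ND4 of -1.70 (0.20, 0.000271) and CYTB of -1.27 (0.15, 0.000319). Their share of the normalized counts on named genes was 2.72% to 3.06% in VEH, 4.43% to 5.04% in DEX, 2.67% to 2.89% in KJ-PYR-9 and 1.83% to 2.62% in KJ-PYR-9+DEX, with DEX above all other libraries. No nuclear-encoded respiratory chain gene of the 32 tested had a called interaction by limma, edgeR or DESeq2, and 1 had an unadjusted p under 0.05; with the replicate block 3 of them and 11 of the mitochondrial genes were called lower. No GC values were matched to the mitochondrial genes, so that check is void for them.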
